A study of Mus musculus with 4 samples.

Results

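HOX cluster genes encode homeodomain transcription factors, and all 39 of them in the files were taken: every gene symbol made of Hox, a cluster letter from a to d and a paralog number, out of 24015 genes. They comprise 11 Hoxa, 10 Hoxb, 9 Hoxc and 9 Hoxd genes. By paralog number, 12 were anterior (1 to 4), 15 middle (5 to 9) and 12 posterior (10 to 13). RNA was sequenced from mouse embryoid bodies, aggregates in which embryonic stem cells differentiate, in 2 Trim33-deficient and 2 Control libraries. The stem cells came from embryos homozygous for a floxed Trim33 allele with a UbcCreERT2 transgene, in which the ubiquitin C promoter drives a Cre recombinase that needs tamoxifen. The cells were of outbred strain and had been kept with LIF and 2i without feeders before differentiation. 4-hydroxytamoxifen was given on day 4 to make the bodies Trim33-deficient, and all bodies were collected on day 7. The labels call the Control genotype wild type, and state neither whether Control bodies received the drug nor how many stem cell lines were used. They speak of independent pairs, and libraries with the same replicate number were taken as a pair. The purpose was to find genes that differ between Trim33-deficient and Control bodies. TRIM33 is a chromatin-associated ubiquitin ligase that partners with SMAD proteins.

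The HOX genes of mammals lie in 4 clusters, and paralogs with the same number derive from the same ancestral gene. Within a cluster, genes with low numbers are switched on earlier and farther forward along the body axis than genes with high numbers, an order called collinearity. In embryonic stem cells the clusters are held silent by Polycomb proteins, and retinoic acid, WNT and FGF signals together with CDX factors switch them on during differentiation. Bulk RNA cannot tell apart fewer HOX-expressing cells from less HOX RNA per cell.

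The libraries held 13808837 and 12109547 counts in genes for Trim33-deficient replicates 1 and 2, and 12390541 and 10422738 for Control replicates 1 and 2. Trim33 itself had 43.8 and 42.3 CPM (counts scaled to library size, with TMM normalisation) in Trim33-deficient bodies, against 93.0 and 109 CPM in Control bodies. The log2 ratio was -1.23 (SE 0.13), with an adjusted p of 0.219 by edgeR's quasi-likelihood test and 1.8e-06 by DESeq2. Transcripts that lack the floxed exons can still be counted, so this level does not measure the deleted share. Control replicate 1 stood apart from the other libraries, since its Pearson correlation with them across tested genes was 0.932 to 0.952, while theirs with each other was 0.967 to 0.978 (a description, as genes are not replicates). Every HOX result below rests in part on that library.

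HOX RNA was scarce in Control replicate 1 and of similar level in the other libraries. The summed level of all 39 genes was 181.5 and 260.8 CPM in Trim33-deficient replicates 1 and 2, against 60.3 CPM in Control replicate 1 and 227.0 CPM in Control replicate 2. The sums rest on 2516 and 3054 counts in Trim33-deficient libraries and 780 and 2325 counts in Control libraries. Thus Control replicate 1 was lowest, and Control replicate 2 lay between the Trim33-deficient libraries, so the groups overlapped. The means were 221.1 ± 56.1 CPM in Trim33-deficient and 143.7 ± 118 CPM in Control bodies (SD, n = 2 each), a 1.54-fold ratio. The ratio of Trim33-deficient to Control was 3.01 within replicate number 1 and 1.15 within replicate number 2. Between the Control replicates themselves the ratio of replicate 2 to replicate 1 was 3.77, larger than the ratio between groups, and between the Trim33-deficient replicates it was 1.44. With 2 libraries against 2, the smallest two-sided p of an exact permutation test is 1 in 3, so the sum was not tested.

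**Figure D1:**
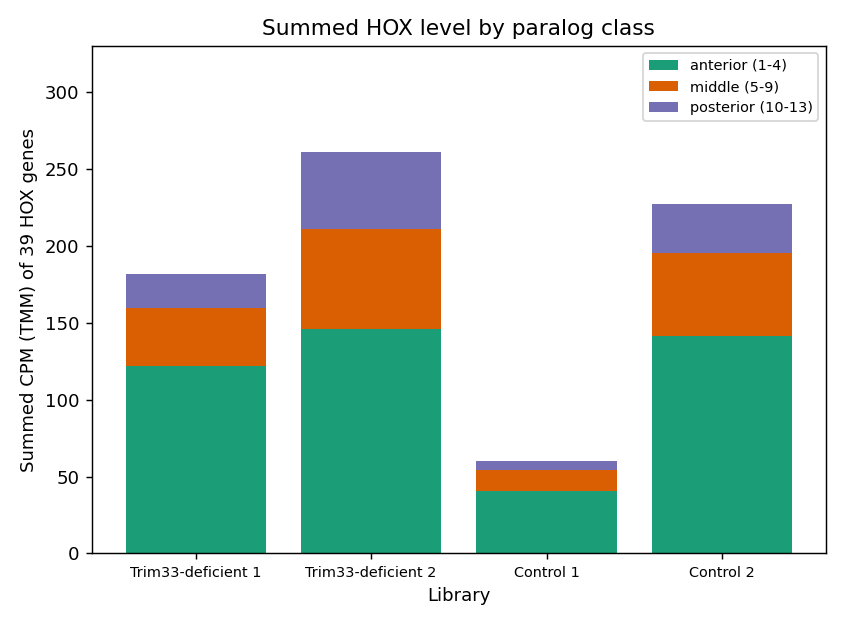
Summed TMM-scaled CPM of the 39 HOX genes (y axis) in each library (x axis), stacked by paralog class. The Control replicate 1 bar ends at 60.3 CPM, and the other bars end between 181.5 and 260.8 CPM.

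No HOX gene passed the test. Of the 39 genes, 33 passed the filter on low counts (edgeR filterByExpr), and edgeR called 0 of them at an adjusted p of 0.05. Over all 14259 genes tested, 0.014% were called, 2 genes, both lower. DESeq2 called 0 HOX genes, against 0.989% of all genes, and limma voom called 0 HOX genes, against 0% of all genes. At an unadjusted p under 0.05 edgeR marked 1 HOX gene as lower, Hoxd1, against 4.78% of all genes, and 0 as higher, against 3.06%. DESeq2 marked 0 in either direction at that p, against 2.85% of all genes higher and 3.91% lower. Voom marked 1 HOX gene as higher, Hoxb6, against 3.1% of all genes, and 0 as lower, against 4.64%. The authors' deposited table, which lists 84 genes with adjusted p up to 0.0496, holds 0 HOX genes. The log2 fold changes of the 33 tested genes ran from -1.20 to 1.76, and 29 were above 0, as were 49.8% of all genes tested. Their median was 0.75, beside -0.00135 for all genes tested. Without Control replicate 1 the median was 0.09, with 19 of 34 above 0 beside 50.7% of all genes. At an unadjusted p under 0.05 that fit marked 2 HOX genes as lower, Hoxd1 among them, against 3.6% of all genes, and 0 as higher, against 3.38%. Without Control replicate 2 it was 1.85, with 31 of 33 above 0 beside 49.7% of all genes, and 19 HOX genes had an unadjusted p under 0.05, all higher, against 8.53% of all genes higher and 9.82% lower. Those 19 all missed the adjusted threshold. Without Trim33-deficient replicate 1 the median was 1.02, with 29 of 34 above 0 beside 47.9% of all genes, and without Trim33-deficient replicate 2 it was 0.48, with 20 of 34 above 0 beside 48% of all genes. Both of those fits marked 0 HOX genes in either direction at an unadjusted p under 0.05. Of all genes they marked 2.03% and 0.887% as higher and 3% and 1.61% as lower.

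**Figure D2:**
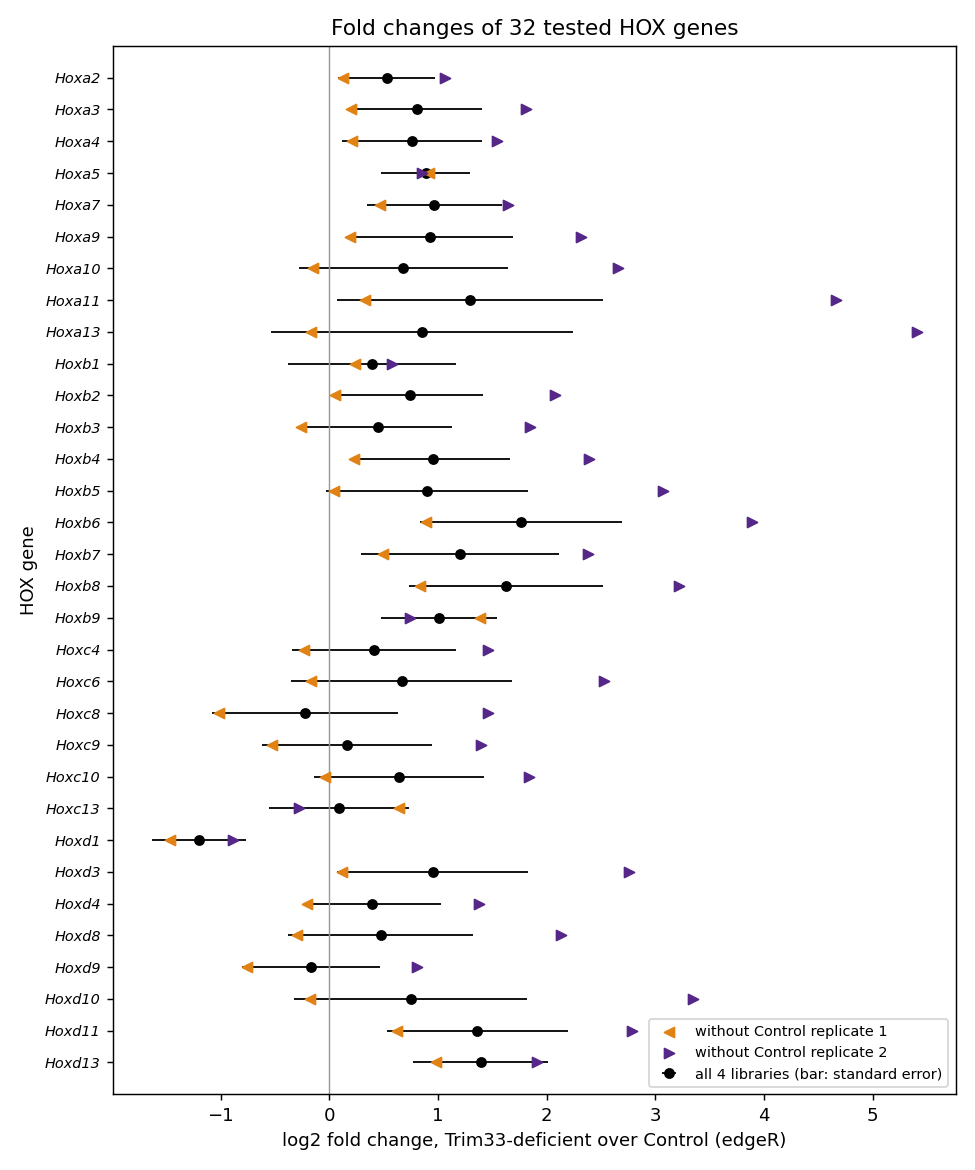
The log2 fold change of Trim33-deficient over Control (x axis) for 32 of the 33 tested HOX genes (y axis), from all 4 libraries with standard error bars (circles) and without either Control replicate (triangles). For most genes the value without Control replicate 1 lies near 0 and that without Control replicate 2 lies far to the right, while Hoxa5 stays between 0.84 and 0.94 and Hoxd1 stays below 0.

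The groups parted for few members. In 8 of the 33 tested genes both Trim33-deficient libraries lay above both Control libraries, namely Hoxa3, Hoxa4, Hoxa5, Hoxa7, Hoxb6, Hoxb8, Hoxb9 and Hoxd13. Among all genes tested this held for 19.3%. In 1 of 33, Hoxd1, they lay below both, which held for 21.4% of all genes. The share of HOX genes was thus near that of all genes for higher values and below it for lower values. Control replicate 1 was the lowest library for 28 of the 33, and a gene for which it is lowest cannot count as lower. The stretch of 250 bases upstream of the start site is shown, from RefSeq (GRCm38.p6), for 4 of these 9 genes, chosen for the values described below: Hoxa5 for its close replicates, Hoxd1 as the lower one, and Hoxb8 and Hoxd13 with an unadjusted p under 0.05 in the blocked fit. Capitals mark matches, on either strand, to the TATA box TATAAA, to TTTATG, a core that CDX factors bind, or to TGATNNAT, a joint site of HOX and PBX proteins. The windows are chr6:52204588-52204837 on the minus strand for Hoxa5, chr11:96281655-96281904 on the plus strand for Hoxb8, chr2:74667975-74668224 on the plus strand for Hoxd13 and chr2:74762730-74762979 on the plus strand for Hoxd1.
Hoxa5: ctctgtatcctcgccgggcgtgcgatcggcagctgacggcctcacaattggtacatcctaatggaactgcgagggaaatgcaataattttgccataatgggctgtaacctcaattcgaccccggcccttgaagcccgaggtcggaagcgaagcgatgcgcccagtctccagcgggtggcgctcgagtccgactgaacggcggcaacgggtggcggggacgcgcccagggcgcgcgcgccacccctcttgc
Hoxb8: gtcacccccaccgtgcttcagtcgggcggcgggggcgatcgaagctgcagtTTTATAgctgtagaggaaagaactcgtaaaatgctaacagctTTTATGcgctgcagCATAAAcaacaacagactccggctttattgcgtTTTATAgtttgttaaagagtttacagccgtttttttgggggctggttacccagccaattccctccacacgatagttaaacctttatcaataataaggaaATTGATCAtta
Hoxd13: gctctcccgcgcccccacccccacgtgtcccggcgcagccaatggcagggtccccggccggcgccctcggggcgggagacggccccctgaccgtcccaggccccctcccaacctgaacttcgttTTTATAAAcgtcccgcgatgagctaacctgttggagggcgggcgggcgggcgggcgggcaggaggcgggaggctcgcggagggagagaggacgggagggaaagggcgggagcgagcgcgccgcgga
Hoxd1: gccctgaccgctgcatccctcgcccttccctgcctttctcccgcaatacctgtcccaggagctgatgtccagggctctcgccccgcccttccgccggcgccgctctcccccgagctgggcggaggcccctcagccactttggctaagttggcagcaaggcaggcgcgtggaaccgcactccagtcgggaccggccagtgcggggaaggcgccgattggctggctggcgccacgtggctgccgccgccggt
The Hoxb8 window held all 3 motifs, the Hoxd13 window a TATA box, and the Hoxa5 and Hoxd1 windows none. Windows were at hand for 22 of the 39 HOX genes, 24 in all. Of these, 4 (16.7%) held TATAAA, 5 (20.8%) TTTATG and 4 (16.7%) TGATNNAT, with the Hoxb8 window in each count. Of 32817 windows of all genes, 12.4%, 10.8% and 7.69% held them. The median GC content of the HOX windows was 58.6%, against 52.4% over all windows. The median ratio of observed to expected CpG was 0.72 in the HOX windows, against 0.37. The matches describe letters only.

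Anterior genes held most of the HOX counts. Their summed level was 122.0 and 145.9 CPM in Trim33-deficient replicates 1 and 2, against 40.5 and 141.1 CPM in Control replicates 1 and 2. All 12 were tested, and their median log2 fold change was 0.49. Hoxb1, which specifies a single hindbrain segment, had 3.32 and 0.77 CPM in Trim33-deficient bodies, against 1.39 and 1.76 CPM in Control bodies. Its Trim33-deficient values lay above and below the Control values (log2 fold change 0.39, SE 0.77, edgeR adjusted p = 0.891). Hoxd1, which in mice shapes pain-sensing neurons, had 1.30 and 1.45 CPM in Trim33-deficient bodies, against 2.55 and 3.81 CPM in Control bodies. Of the tested HOX genes it alone was lower in Trim33-deficient bodies within both replicate numbers. The log2 difference was -1.20 (SE 0.43, edgeR adjusted p = 0.629), from -1.47 to -0.88 over the left-out libraries, and it rests on 17 to 39 counts per library.

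The other anterior genes were dominated by Hoxb2, a hindbrain gene and the HOX gene with the highest level per length in each library. Hoxb2 had 42.8 and 61.3 CPM in Trim33-deficient bodies, against 12.4 and 50.1 CPM in Control bodies. Hoxb3, which acts in the hindbrain and pharynx, had 24.4 and 20.6 CPM in Trim33-deficient bodies, against 6.26 and 26.9 CPM in Control bodies. Hoxb4, known for expanding blood stem cells, had 17.7 and 25.1 CPM in Trim33-deficient bodies, against 4.09 and 18.2 CPM in Control bodies. In all 3 genes Control replicate 1 was low and the other libraries lay close together. Their log2 fold changes were 0.74, 0.45 and 0.95, with standard errors from 0.67 to 0.71 and edgeR adjusted p from 0.737 to 0.859. Without Control replicate 1 they were 0.05, -0.26 and 0.23. Hoxa2, which patterns the second pharyngeal arch, had 7.36 and 5.21 CPM in Trim33-deficient bodies, against 3.01 and 5.76 CPM in Control bodies. Hoxa3, needed for the thymus and parathyroid, had 5.19 and 6.75 CPM in Trim33-deficient bodies, against 1.70 and 5.18 CPM in Control bodies. The groups of Hoxa3 did not overlap, though Trim33-deficient replicate 1 and Control replicate 2 nearly met (log2 fold change 0.81, SE 0.60, edgeR adjusted p = 0.737). Hoxd3 had 1.80 and 2.48 CPM in Trim33-deficient bodies, against 0.31 and 1.95 CPM in Control bodies. Hoxd4, a neck vertebra gene, had 3.75 and 6.32 CPM in Trim33-deficient bodies, against 1.93 and 5.76 CPM in Control bodies. Hoxc4 had 1.23 and 2.65 CPM in Trim33-deficient bodies, against 0.70 and 2.25 CPM in Control bodies. In these 3 genes too, Control replicate 1 was lowest and the groups overlapped. Hoxa4, a neck gene whose groups were apart, had 1.08 and 1.20 CPM in Trim33-deficient bodies, against 0.39 and 0.98 CPM in Control bodies. Its values rest on 15 and 14 counts against 5 and 10 (log2 fold change 0.76, SE 0.64, edgeR adjusted p = 0.764).

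**Figure D3:**
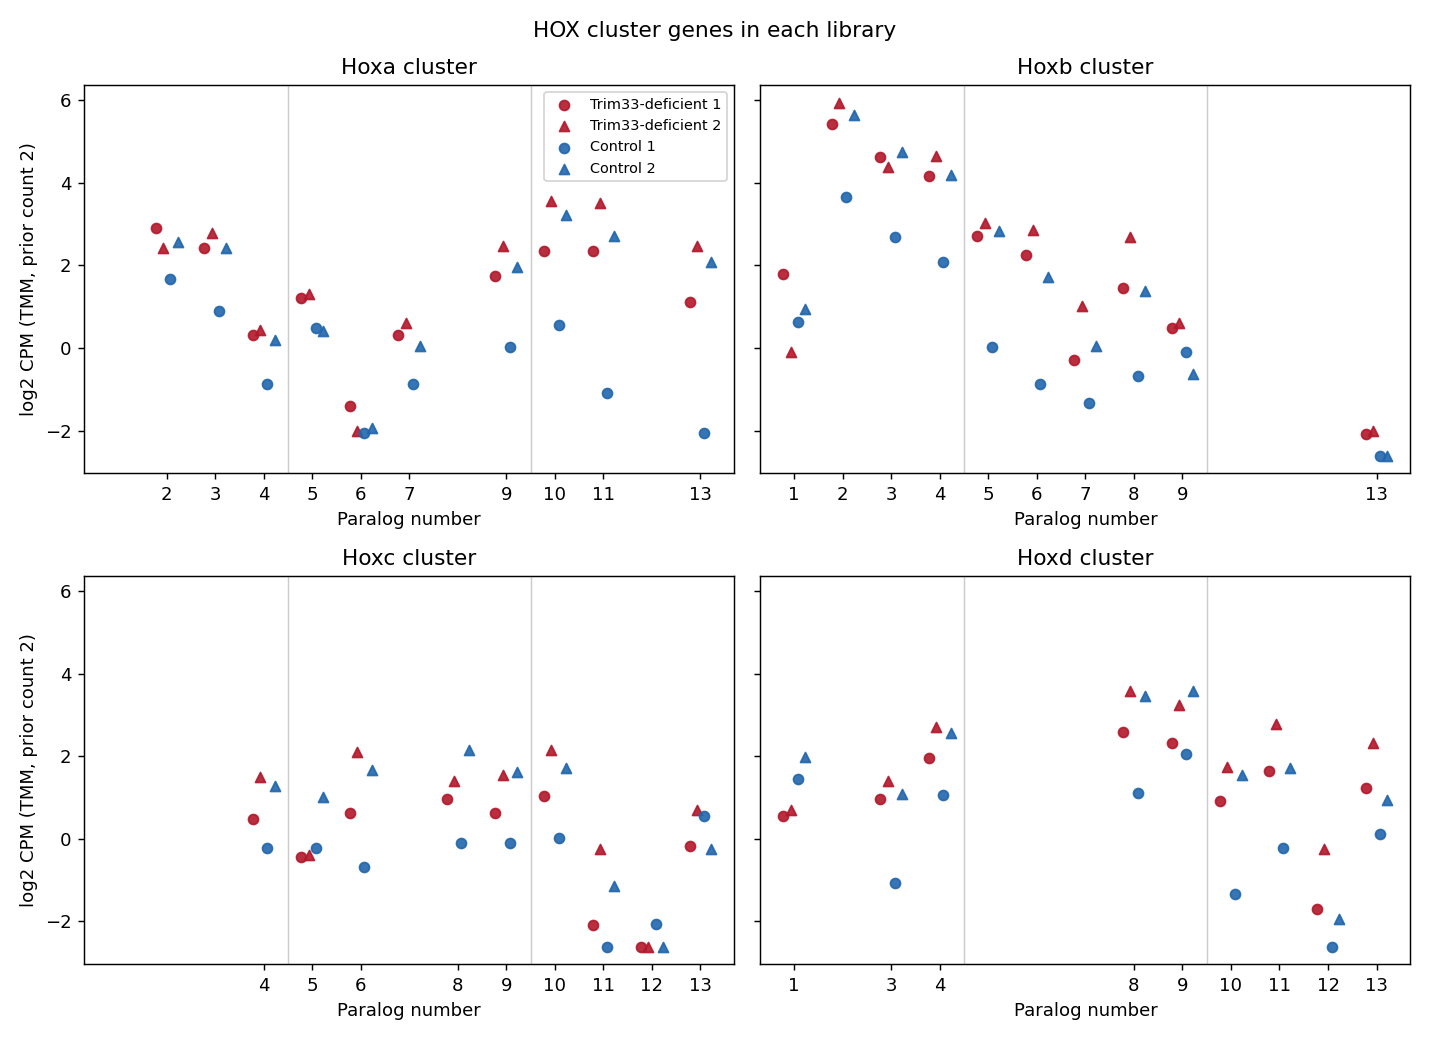
Level of 38 of the 39 HOX genes (y axis, log2 of TMM-scaled CPM with a prior count of 2) by paralog number (x axis) in the 4 clusters, with 1 point per library. Vertical lines part anterior, middle and posterior genes, and Control replicate 1 (blue circles) is the lowest library for most of the genes shown.

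Both Trim33-deficient libraries lay above both Control libraries in 5 of 13 tested middle genes, beside the 19.3% of all genes given above. Their summed level was 37.9 and 64.7 CPM in Trim33-deficient bodies, against 14.0 and 54.5 CPM in Control bodies, and their median log2 fold change was 0.90. Hoxa5, a gene of lung development, stood out for its agreement between replicates. It had 2.16 and 2.31 CPM in Trim33-deficient bodies, against 1.24 and 1.17 CPM in Control bodies. Both groups were tight and apart (log2 fold change 0.88, SE 0.41, edgeR adjusted p = 0.664), and the value stayed between 0.84 and 0.94 over the left-out libraries. It rests on 30 and 27 counts in Trim33-deficient bodies and 16 and 12 in Control bodies. The gene was singled out by these values, and with counts this low the closeness of replicates is no measure of its spread. Hoxb6, a gene of lateral mesoderm, had the highest log2 fold change. It had 4.62 and 7.09 CPM in Trim33-deficient bodies, against 0.39 and 3.12 CPM in Control bodies (log2 fold change 1.76, SE 0.93, edgeR adjusted p = 0.678). Hoxb8, known in myeloid progenitors, had 2.60 and 6.24 CPM in Trim33-deficient bodies, against 0.46 and 2.44 CPM in Control bodies (log2 fold change 1.62, SE 0.89, edgeR adjusted p = 0.683). In both genes Control replicate 1 lay far below the other libraries. Without Control replicate 1 their values were 0.89 and 0.84, and without Control replicate 2 they were 3.89 and 3.22. Hoxb9, a thoracic gene, had 1.23 and 1.37 CPM in Trim33-deficient bodies, against 0.77 and 0.49 CPM in Control bodies. Control replicate 2 was its lowest library (log2 fold change 1.01, SE 0.53, edgeR adjusted p = 0.678). Hoxa7, of the same body region, had 1.08 and 1.37 CPM in Trim33-deficient bodies, against 0.39 and 0.88 CPM in Control bodies. Its groups were apart but near, at 0.97 on the log2 scale (SE 0.62, edgeR adjusted p = 0.713). The values of Hoxb9 and Hoxa7 rest on 5 to 17 counts per library.

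In the other tested middle genes the groups overlapped. Hoxa9, a regulator of blood progenitors, had 3.17 and 5.38 CPM in Trim33-deficient bodies, against 0.85 and 3.71 CPM in Control bodies. Hoxb5 had 6.35 and 8.03 CPM in Trim33-deficient bodies, against 0.85 and 6.93 CPM in Control bodies. Hoxd8 had 5.84 and 11.9 CPM in Trim33-deficient bodies, against 2.01 and 10.8 CPM in Control bodies. These 3 again had their lowest value in Control replicate 1. Hoxd9, a gene of the lumbar region, had 4.83 and 9.22 CPM in Trim33-deficient bodies, against 4.02 and 11.8 CPM in Control bodies. Hoxc8, which positions thoracic structures, had 1.80 and 2.48 CPM in Trim33-deficient bodies, against 0.77 and 4.30 CPM in Control bodies. For both, Control replicate 2 was the highest library and Control replicate 1 the lowest, and the log2 fold changes were -0.17 and -0.23 (SE 0.63 and 0.85, edgeR adjusted p = 0.947 for both). Hoxc6 had 1.37 and 4.10 CPM in Trim33-deficient bodies, against 0.46 and 3.03 CPM in Control bodies. Hoxc9 had 1.37 and 2.73 CPM in Trim33-deficient bodies, against 0.77 and 2.93 CPM in Control bodies. Hoxb7 had 0.65 and 1.88 CPM in Trim33-deficient bodies, against 0.23 and 0.88 CPM in Control bodies. For these 3 the second replicate was higher than the first in both groups. Hoxc5 did not pass the filter, with 8 and 7 counts in Trim33-deficient and 9 and 19 in Control bodies, and Hoxa6 did not pass with 3 and 1 against 1 and 1 counts. Both Trim33-deficient values of Hoxc5 lay below both Control values.

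Posterior genes had a summed level that differed widely between replicates. Their summed level was 21.6 and 50.2 CPM in Trim33-deficient bodies, against 5.79 and 31.4 CPM in Control bodies. Trim33-deficient replicate 2 was thus the highest library and Control replicate 1 the lowest, while Trim33-deficient replicate 1 lay below Control replicate 2. The replicate 2 to replicate 1 ratio was 2.32 in Trim33-deficient and 5.43 in Control bodies, against 1.20 and 3.49 for anterior and 1.71 and 3.90 for middle genes. Posterior genes made up 11.9% (10.7 to 13.2) and 19.3% (17.9 to 20.7) of HOX counts in Trim33-deficient replicates 1 and 2, against 9.62% (7.74 to 11.9) and 13.8% (12.5 to 15.3) in Control replicates 1 and 2. The brackets are 95% Wilson binomial intervals, which cover counting error only, since reads without molecular identifiers are not independent molecules. Within replicate number 2 the intervals did not overlap, and within number 1 they did. The median log2 fold change of the 8 tested posterior genes was 0.80. Hoxd13, a digit and urogenital gene, was the tested posterior gene whose groups parted. It had 2.16 and 4.87 CPM in Trim33-deficient bodies, against 0.93 and 1.76 CPM in Control bodies. The log2 difference was 1.39 (SE 0.62, edgeR adjusted p = 0.663), from 0.70 to 1.91 over the left-out libraries.

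In Control replicate 1 Hoxa10 was low, and Hoxa11 and Hoxa13 were close to absent. Hoxa10, a gene of uterus and lumbar patterning, had 4.98 and 11.7 CPM in Trim33-deficient bodies, against 1.31 and 9.18 CPM in Control bodies. Hoxa11, needed with its paralogs for kidney and forearm, had 4.90 and 11.2 CPM in Trim33-deficient bodies, against 0.31 and 6.35 CPM in Control bodies. Hoxa13, which with Hoxd13 patterns digits and hindgut, had 2.02 and 5.38 CPM in Trim33-deficient bodies, against 0.08 and 4.10 CPM in Control bodies. For Hoxa11 and Hoxa13 the Control replicate 1 values rest on 4 and 1 counts, against 65 and 42 in Control replicate 2. In all 3 genes Control replicate 2 lay between the Trim33-deficient libraries. Their log2 fold changes were 0.68, 1.29 and 0.85 with standard errors from 0.96 to 1.39 (edgeR adjusted p from 0.786 to 0.867), and -0.15, 0.33 and -0.17 without Control replicate 1. Hoxd11 had 2.96 and 6.75 CPM in Trim33-deficient bodies, against 0.70 and 3.12 CPM in Control bodies. Hoxd10 had 1.73 and 3.16 CPM in Trim33-deficient bodies, against 0.23 and 2.73 CPM in Control bodies. Hoxc10 had 1.88 and 4.27 CPM in Trim33-deficient bodies, against 0.85 and 3.12 CPM in Control bodies. The order of libraries was the same in these 3 genes, with Trim33-deficient replicate 2 highest, then Control replicate 2, Trim33-deficient replicate 1 and Control replicate 1. Hoxc13, a hair follicle gene, had 0.72 and 1.45 CPM in Trim33-deficient bodies, against 1.31 and 0.68 CPM in Control bodies, an order unlike that of the other posterior genes. Hoxb13, Hoxc11, Hoxc12 and Hoxd12 did not pass the filter and had 0 to 8 counts per library. Tested without the filter, the 6 genes that did not pass had edgeR adjusted p from 0.776 to 0.893.

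Within replicate numbers, most members were higher in Trim33-deficient bodies. Of the 33 tested genes, 31 were higher within number 1, as were 49.9% of all genes tested, and 25 within number 2, as were 50.6%. In 24 the Trim33-deficient library was higher within both numbers, as in 30.3% of all genes, and in 1, Hoxd1, it was lower within both, as in 29.8%. Over all 39 members the counts were 27 higher and 2 lower within both numbers, the second lower gene being Hoxc5. All members of paralog groups 4, 7, 10 and 11 were higher in both. These counts depend on which libraries are paired, which the data do not settle, and number 1 holds Control replicate 1. Under either possible pairing, 8 of the 33 tested genes were higher in both pairs, beside 19.3% of all genes. They are the genes whose groups did not overlap. The blocked fit below rests on the same pairing. The sizes differed between the numbers. The median within-number difference in log2 CPM over the 39 genes was 1.16 for number 1 and 0.34 for number 2. With the replicate number as a block, edgeR called 0 HOX genes and gave 5 an unadjusted p under 0.05, all higher, beside 5.48% of all genes higher and 6.07% lower at that p. They were Hoxb4, Hoxb6, Hoxb8, Hoxd11 and Hoxd13, with log2 fold changes of 1.25, 2.14, 1.81, 1.53 and 1.35 and edgeR adjusted p from 0.347 to 0.424. The blocked median was 0.96, and DESeq2 with the block called 0 HOX genes, against 1.31% of all genes.

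**Figure D4:**
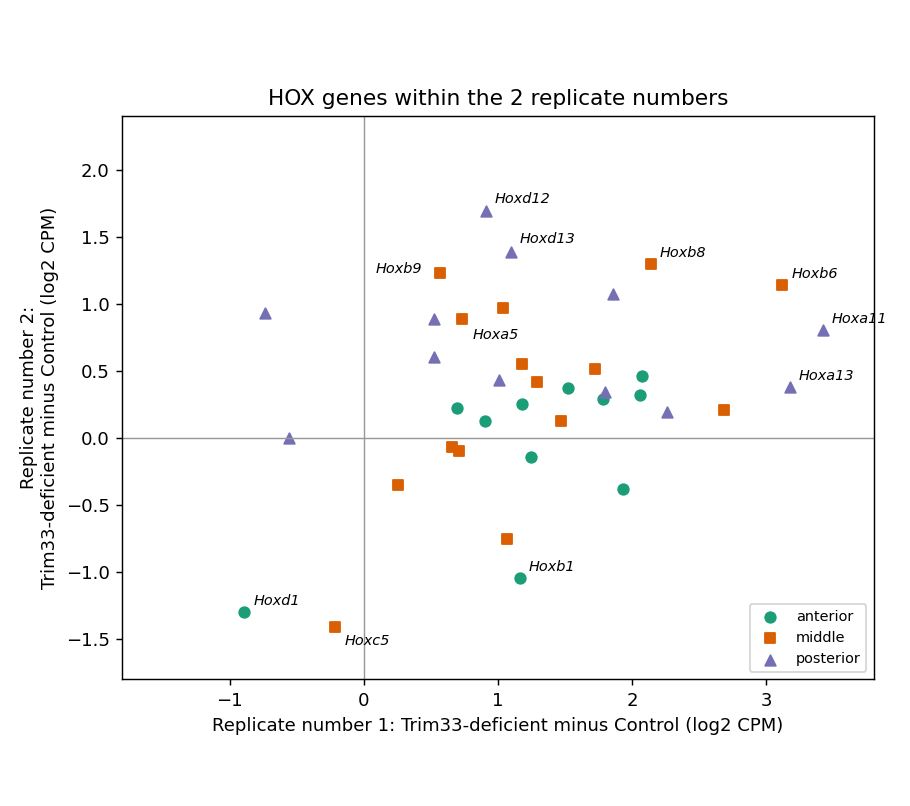
Difference in log2 CPM, Trim33-deficient minus Control, within replicate number 1 (x axis) and within replicate number 2 (y axis), with 1 point for each of 38 HOX genes and colour by paralog class. Most points lie in the upper right, 27 of them, while Hoxd1 and Hoxc5 lie in the lower left and Hoxb1 is among those in the lower right.

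The Control replicates set most of the spread. In 29 of 33 tested HOX genes the Control replicates were farther apart on the log2 scale than the Trim33-deficient replicates, as in 56.9% of all genes tested. Control replicate 1 was the lowest library for 28 of the 33, against 31.3% of all genes, and Trim33-deficient replicate 2 was the highest for 25, against 28.4%. The median difference between Control replicates 2 and 1 over the 39 genes was 1.52 in log2 CPM, and that between Trim33-deficient replicates 2 and 1 was 0.60. By class the second replicate of Trim33-deficient bodies exceeded the first by a median of 0.26 for anterior, 0.60 for middle and 1.13 for posterior genes. The gap between these libraries thus widened from class to class. It did not widen at every paralog number, with a median of 0.61 for group 4 and 0.09 for group 5. In Control bodies the corresponding medians were 1.51, 1.72 and 1.59. The posterior median includes the untested genes Hoxb13, Hoxc11, Hoxc12 and Hoxd12, with 0 to 8 counts per library. By summed level the Control ratio of replicate 2 to replicate 1 did rise by class, at 3.49, 3.90 and 5.43. An order limited to Trim33-deficient bodies is therefore not shown.

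The clusters ranked Hoxb, Hoxa, Hoxd and Hoxc by summed CPM in every library, while the shares of Hoxb, Hoxc and Hoxd varied more than that of Hoxa. Hoxb genes, whose members here are mostly anterior and middle, had 103.8 and 132.5 CPM in Trim33-deficient bodies, against 26.8 and 110.7 CPM in Control bodies. They made up 57.2% (55.3 to 59.1) and 50.8% (49.0 to 52.6) of HOX counts in Trim33-deficient bodies, against 44.5% (41.0 to 48.0) and 48.8% (46.7 to 50.8) in Control bodies (95% Wilson intervals). The shares of both Trim33-deficient libraries lay above those of both Control libraries, but the intervals of Trim33-deficient replicate 2 and Control replicate 2 met. Hoxa genes held 24.3% and 24.0% in Trim33-deficient bodies, against 25.1% and 24.6% in Control bodies. Hoxd genes held 13.5% and 17.9% in Trim33-deficient bodies, against 21.0% and 18.5% in Control bodies, and Hoxc genes 4.97% and 7.27%, against 9.36% and 8.13%. For Hoxc and Hoxd the Trim33-deficient shares were the lower ones, though within replicate number 2 the intervals overlapped for both. The summed ratio of Trim33-deficient to Control was 1.72 for Hoxb, 1.5 for Hoxa, 1.31 for Hoxd and 1.16 for Hoxc. Within replicate number 2 these ratios lay between 1.03 for Hoxc and 1.20 for Hoxb.

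Levels of different genes were compared per length, as RPKM (CPM divided by transcript length) on the longest basic coding transcript of GENCODE M21. That annotation may differ from the one counted. Hoxb2 ranked first in all 4 libraries, with 26.3 and 37.7 RPKM in Trim33-deficient bodies, against 7.59 and 30.8 RPKM in Control bodies. Hoxb4 and Hoxb3 followed by overall mean, with 8.35 ± 2.03 and 7.05 ± 0.841 RPKM in Trim33-deficient bodies, against 4.34 ± 3.88 and 5.19 ± 4.57 RPKM in Control bodies (SD, n = 2 each). The SDs of these neighbours overlap, so their order is not resolved. Further genes with high means, Hoxd9, Hoxd11, Hoxa2, Hoxb5, Hoxd8, Hoxa10 and Hoxa11, ran from 3.50 to 2.49 RPKM over all libraries and also cannot be ranked within their spread. Some genes changed place between libraries. Hoxa11 ranked 11th and 6th in Trim33-deficient bodies, against 31st and 11th in Control bodies, and Hoxd1 25th and 28th, against 7th and 14th.

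Genes beside and inside the clusters did not share the low value of Control replicate 1 throughout. Evx1, the homeobox gene next to Hoxa13, had 4.83 and 6.92 CPM in Trim33-deficient bodies, against 5.49 and 8.79 CPM in Control bodies. Its groups overlapped (log2 fold change -0.28, SE 0.38, edgeR adjusted p = 0.846), and Control replicate 1 held 71 counts. Hoxa11os, the antisense partner of Hoxa11, had 43 and 66 counts in Trim33-deficient bodies, against 1 and 60 in Control bodies, as Hoxa11 had 68 and 131 against 4 and 65. Whether strand was used in counting is not stated, so reads of the pair cannot be told apart. The noncoding RNA gene Hottip had 0 to 4 counts per library and Hotair 0 to 1. Of 17 flanking genes tested, 0 were called, 7 had log2 fold changes above 0 and the median was -0.29. Their summed level was 1830 and 1750 CPM in Trim33-deficient bodies, against 1690 and 1850 CPM in Control bodies. Control replicate 1 was the lowest library for 5 of the 17. The 4 with the smallest p were Hnrnpa1, Lnp, Calcoco1 and Smug1, with log2 fold changes of -0.45, -0.30, -0.29 and -0.31 (edgeR adjusted p from 0.629 to 0.664). The rows of the cluster microRNA genes, Mir10a, Mir10b, Mir196a-1, Mir196a-2, Mir196b and Mir615, held 0 or 1 counts in every library.

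None of the genes known to act with or upstream of HOX genes passed the edgeR test either. Among the TALE cofactors, homeodomain proteins that bind DNA with HOX proteins, 0 of 9 were called and 6 were above 0. Meis1 had 88.2 and 72.1 CPM in Trim33-deficient bodies, against 41.0 and 59.0 CPM in Control bodies (log2 fold change 0.68, SE 0.22, edgeR adjusted p = 0.608). Pbx3 had 70.6 and 78.6 CPM in Trim33-deficient bodies, against 48.1 and 63.0 CPM in Control bodies (log2 fold change 0.43, edgeR adjusted p = 0.651). In both the groups did not overlap and Control replicate 1 was lowest. Pbx4 and Meis3 were at -1.02 and 0.35 on the log2 scale (edgeR adjusted p = 0.650 and 0.655). Of the CDX factors and other regulators of the posterior axis, 0 of 11 tested were called and 4 were above 0. Gdf11, a signal that starts the trunk to tail transition, had 15.2 and 19.1 CPM in Trim33-deficient bodies, against 11.7 and 10.1 CPM in Control bodies (log2 fold change 0.66, edgeR adjusted p = 0.628). Tbx6, a gene of presomitic mesoderm, had 0.43 and 0.60 CPM in Trim33-deficient bodies, against 2.09 and 1.37 CPM in Control bodies (log2 fold change -1.74, edgeR adjusted p = 0.601). Sall4, a zinc finger factor of stem cells, and Nkx1-2, a gene of tail progenitors, were at -0.57 and 1.07 (edgeR adjusted p = 0.628 and 0.671). Cdx2 had 18.0 and 27.1 CPM in Trim33-deficient bodies, against 14.5 and 22.4 CPM in Control bodies, with overlapping groups. Of the hindbrain regulators 0 of 5 were called by edgeR, 2 were above 0 and 3 below, and the median log2 fold change was -0.09. DESeq2 called 1 of the 5 lower. Egr2 and Fgf3, which mark hindbrain segments or signal there, were at 0.54 and 0.41 (edgeR adjusted p = 0.784 and 0.840). Of 17 retinoid genes, 22 Polycomb genes and 10 Trithorax genes 0 were called, with medians of -0.13, -0.05 and -0.03. Ezh1, a Polycomb methyltransferase, averaged 31.3 ± 0.973 CPM in Trim33-deficient and 55.8 ± 0.102 CPM in Control bodies (SD, n = 2 each, log2 fold change -0.83, SE 0.12, edgeR adjusted p = 0.316). Both groups were tight and apart, and DESeq2 called 1 Polycomb gene lower. The next Polycomb genes by p, Suz12, Rbbp7 and Ring1, were at -0.28, -0.26 and -0.40. Among retinoid genes the receptor gene Rxrb was at -0.38, the retinoid synthesis genes Rdh10 and Aldh1a1 at 0.30 and -1.08, and the retinoid-binding protein gene Crabp1 at -0.94. Among Trithorax genes Men1, Kdm6a, Kmt2a and Ash2l were at 0.18, 0.14, 0.13 and -0.18. For these 11 genes edgeR's adjusted p lay between 0.618 and 0.760.

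Some marker lists of other cell types moved with Control replicate 1 as well. Summed anterior brain markers had 132 and 100.0 CPM in Trim33-deficient bodies, against 372 and 129 CPM in Control bodies, and Control replicate 1 was the highest library for 11 of 14, as it was for 31.7% of all genes tested. Summed neural progenitor markers had 527 and 410 CPM in Trim33-deficient bodies, against 840 and 488 CPM in Control bodies, highest in Control replicate 1 for 9 of 10. Summed mesoderm markers had 856 and 1000 CPM in Trim33-deficient bodies, against 338 and 982 CPM in Control bodies, lowest in Control replicate 1 for 11 of 14. Control replicate 1 was thus high for the neural lists and low for the mesoderm list. Blood and endothelium markers had 325 and 566 CPM in Trim33-deficient bodies, against 218 and 574 CPM in Control bodies. Cardiomyocyte markers had 1570 and 424 CPM in Trim33-deficient bodies, against 207 and 562 CPM in Control bodies. Their sum was lowest in Control replicate 1, but Trim33-deficient replicate 1 was the library farthest from the rest. Neuron markers had 239 and 181 CPM in Trim33-deficient bodies, against 410 and 116 CPM in Control bodies, and pluripotency markers 101 and 140, against 181 and 114. No marker of these lists was at 0 in all libraries. The part of these cell types in the HOX values was not tested. Visceral endoderm markers followed the groups rather than that library, with 206 and 226 CPM in Trim33-deficient bodies, against 1200 and 1410 CPM in Control bodies, and 10 of 10 were lower within both replicate numbers. Of these, Cubn, the gene of an endocytic receptor, fell (log2 fold change -4.76, SE 0.17, edgeR adjusted p = 0.0166).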

How the data were processed

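The authors deposited raw counts per gene for each library. Per the submitters' processing notes, mm9 was the mouse build and the tools were STAR, HTSeq and DESeq, without versions or settings. Reads assigned to no gene made up 55.5% to 56.0% of reads in the files, and ambiguous reads at most 0.20%. These rows were left out of library sizes and tests. The authors' deposited table holds log2 fold changes and adjusted p-values, per the file headers.

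Counts were filtered with filterByExpr, scaled by TMM and tested with edgeR 4.0.16 (quasi-likelihood, Benjamini-Hochberg over all 14259 genes tested, two-sided, no replicate block) in R 4.3.3. Standard errors are the absolute log2 fold change over the square root of F. DESeq2 1.42.0, limma 3.58.1 voom, other scalings and filters, the block and left-out libraries were alternatives. A fit without 1 library assumes that its group's remaining library varies as the other group does. The tests were also run on simulated counts with known changes. That simulation held no pair effect and no library that stood apart, so it does not cover the influence of Control replicate 1.

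Replicate numbers were taken as pairs because the labels speak of independent pairs. Deviations of same-numbered libraries from their group means had a Pearson r of 0.236 across genes. With 2 libraries per group the other pairing gives the same size with the opposite sign, so this value cannot settle the pairing. Whether replicates came from separate lines is not stated, so a p-value measures no more than the spread between these 4 libraries, which may be technical. Replicates were not duplicates (chi-square per degree of freedom 24.3 for Trim33-deficient and 35.7 for Control). Members and lists were chosen with earlier results of these data known. Members with a mean of at least 1 CPM, or an edgeR p under 0.05, were to be given with every library, and up to 4 genes per list of regulators, neighbours and other homeobox genes by smallest p. Hoxa4, Hoxa6, Hoxa7, Hoxb7, Hoxb9 and Hoxc5, below 1 CPM, were added after their values were seen, as was Cdx2. Marker lists are given as sums. Some genes that these rules name are not reported here. The 10422738 to 13808837 counts per library leave the rarer members with few counts, and intervals cover counting error only.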

Additional observations from a re-analysis of the deposited data

How the results depend on the processing

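The count of called HOX genes was 0 under every alternative run. Under the other scalings, filters and tests and the replicate block, the HOX median log2 fold change ran from 0.73 to 1.01. The summed log2 ratio ran from 0.60 to 0.90. These shifts were smaller than the SD of the Trim33-deficient minus Control differences within replicate numbers. That SD comes from 2 values, 1 of them with Control replicate 1, so it is a loose yardstick and does not show stability. The number above 0 was 29 of 33 with the other scalings and DESeq2, and 31 of 33 with voom and both blocked fits. It was 28 of 32 with a filter at 1 CPM. Without the low-count filter it was 33 of 39, beside 48.8% of all genes. The blocked median was 0.96, and the blocked summed log2 ratio was 0.90 beside 0.62. Over the left-out libraries the median ran from 0.085 to 1.85, the number above 0 from 19 to 31 and the summed log2 ratio from -0.043 to 1.88, with the low ends without Control replicate 1. The number of all genes called moved from 2 to 14 without the low-count filter, to 141 with DESeq2, to 187 with DESeq2 and the replicate block and to 0 with voom, and ran from 0 without either Trim33-deficient library to 91 without Control replicate 2. The replicate block changed no HOX call. Of 336 single-gene HOX values under alternatives, 309 kept their direction and 27 turned, in 14 of 28 genes. Most turns came from left-out libraries, each of which gave 1 value per gene. Without Control replicate 1, 10 of the 28 genes turned, and without Trim33-deficient replicate 2, 9 turned. Without Control replicate 2, 3 turned, and without Trim33-deficient replicate 1, 2 turned. The alternatives that kept all 4 libraries gave 3 turns. Hoxc8 turned to 0.28 with voom, 0.11 with the replicate block and 0.19 with DESeq2 and the block. Over the left-out libraries the log2 fold change of genes that turned ran for Hoxa10 from -0.15 to 2.66, Hoxa13 from -0.17 to 5.41, Hoxb1 from -1.02 to 1.08, Hoxb3 from -0.26 to 1.85, Hoxc10 from -0.067 to 1.84, Hoxc13 from -0.47 to 0.64, Hoxc4 from -0.24 to 1.46, Hoxc6 from -0.32 to 2.53, Hoxd10 from -0.18 to 3.34, Hoxc9 from -0.53 to 1.39, Hoxd4 from -0.21 to 1.38, Hoxd8 from -0.30 to 2.13, Hoxd9 from -0.76 to 0.80 and Hoxc8 from -1.01 to 1.46. The cause was not tested. Low counts limit the members, 6 of which could not be tested with the filter.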

Other observations

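Homeobox genes of the same superclass outside the clusters did not share the HOX pattern as a list. Of 13 tested, 0 were called by edgeR, 4 were above 0 and the median log2 fold change was -0.28, and Control replicate 1 was the highest library for 9 of 20. Dlx1, a forebrain and craniofacial gene, was the member with the smallest p. The values were 7.64 and 7.34 CPM in Trim33-deficient bodies, against 2.16 and 2.15 CPM in Control bodies, with tight replicates (log2 fold change 1.79, SE 0.31, edgeR adjusted p = 0.395). Nkx2-2, Nkx2-5 and Dlx2 were at -2.18, 1.88 and 0.49 (edgeR adjusted p from 0.645 to 0.702), and Nkx2-5 had 47.3 and 4.70 CPM in Trim33-deficient bodies, against 4.56 and 9.67 CPM in Control bodies. Trophoblast markers, which include Cdx2, had 0 of 7 called and a summed level of 419 and 559 CPM in Trim33-deficient bodies, against 543 and 512 CPM in Control bodies.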
